A study of Mus musculus with 14 samples.

Results

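Established extraembryonic endoderm (XEN) cell lines were compared here with embryonic stem cells (ESCs) of the mouse. The comparison takes 6 of the 14 polyA RNA-seq libraries of the study: 2 XEN lines, XENB1 and XEN5, which carry unmodified Zfp281, and 4 feeder-free ESC libraries, all chosen by their labels and not by a measured value. The ESC libraries are a wild-type line (3WT), a Zfp281 knockout line (3.34Null), the same knockout with Zfp281 put back (3.34Null-Rescue) and another knockout line (2.6Null in its title, with a different number in its cell line tag). XENB1 carries the strain label 129S1 and the other 5 libraries 129S1/SVImJ. ESCs were grown on gelatin in serum with leukemia inhibitory factor (LIF), and XEN lines on gelatin in RPMI-based serum medium conditioned by mouse embryonic fibroblasts, so that cell type and medium cannot be told apart. Each line is 1 library, and nothing in the labels says that libraries came from separate cultures, so the p-values measure the spread between these lines only. Of the 23174 genes in the deposited table, 12372 had at least 1 FPKM (fragments per kilobase of transcript, scaled to each library's mapped fragments) in at least 2 of the 6 libraries and were tested.

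XEN lines stand for the primitive endoderm, the layer of the blastocyst that separates from the epiblast and gives rise to the parietal and visceral endoderm of the yolk sac. Fibroblast growth factor signalling and the transcription factors Gata6, Gata4, Sox17 and Sox7 set this lineage apart, while Pou5f1, Sox2 and Nanog hold the pluripotent state of ESCs. Parietal endoderm lays down Reichert's membrane, a thick basement membrane of laminin and type IV collagen, and visceral endoderm takes up and digests maternal proteins and secretes plasma-type proteins. Zfp281 is a zinc finger transcription factor, and the study follows its loss during conversion of ESCs to XEN-like cells.

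In the sentences below, the 2 XEN values are given in the order XENB1, XEN5, and the 4 ESC values in the order 3WT, 3.34Null, 3.34Null-Rescue, 2.6Null. A log2 difference is the mean of log2(FPKM + 1) in XEN minus that in ESC, with its standard error after the ± sign (n = 2 and 4), and an adjusted p is from limma with Benjamini-Hochberg correction over all genes tested. Adding 1 makes differences of low genes smaller than their ratio. "Rose" and "fell" are used for an adjusted p under 0.05, and a group of genes is described by counts and a median log2 difference, with no test of the group.

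Zfp281 itself was listed at 10.6 and 12.5 FPKM in the XEN lines and at 28.5, 3.92, 27.7 and 0 FPKM in ESCs, low in 3.34Null and 0 in 2.6Null as their labels say, and restored in 3.34Null-Rescue. The 2.6Null library stood apart from the other ESCs. It lay over 4-fold from the mean of the other 3 on the log2(FPKM + 1) scale at 273 genes, against 26 to 45 genes for each of the others, and it is also the only ESC library whose labels carry the same prefix (XH) as the XEN libraries. The 2 XEN lines correlated at r = 0.960 over the tested genes, a description across genes, and each XEN line with each ESC library at 0.712 to 0.762. Depth is unknown, since the table holds no counts.

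Exact zeros in the table need care. Eef1a1, a translation elongation factor of every cell, was listed at 0 in all 4 ESC libraries and at 5097 and 5694 FPKM in the XEN lines, and Hsp90ab1, a general chaperone, at 0 in 3WT and 3.34Null-Rescue and at 3624 FPKM in 2.6Null. The rows of the table fall into 4 runs, each in chromosome order, and the third run holds only 6 genes: Lamc1, Sparc, Lama1, Hsp90ab1, Col4a2 and Col4a1. All 6 were at 0 in at least 1 library and above 0 in others. A gene whose libraries are all 0 in 1 group is therefore only said to be listed at 0, with no fold. Such genes stay in the counts and medians of their lists unless stated. Among tested genes, 172 were listed at 0 in both XEN lines and 73 in all ESC libraries.

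Markers of other cells moved with the XEN group. Of 24 macrophage genes, a list drawn up after the data were seen, 20 were tested and 18 (90%) were higher in XEN. Over all tested genes that share was 22.2%. Of the 18, 7 were listed at 0 in all 4 ESC libraries and the other 11 were not. In each ESC library 20 to 22 of the 24 were below 1 FPKM, so most could pass the filter only through XEN. Their direction was then largely set by the filter, and the 90% cannot be read against the 22.2%. Tyrobp, an adaptor of myeloid receptors, stood at 55.7 and 17.3 FPKM in XEN with 0 in each of the 4 ESC libraries, and C1qa, a complement subunit made mainly by macrophages, at 35.1 and 14.3 FPKM and 0. The receptor Csf1r was at 7.35 and 6.07 FPKM, and Ptprc, which marks all leukocytes, at 1.43 and 0.701 FPKM. The list summed to 1158 and 455 FPKM in XEN and to 31.7 to 80.6 FPKM in ESCs, and of the 20 members with at least 1 FPKM in both lines 19 were higher in XENB1, by a median ratio of 2.31. Of the fibroblast genes, 13 of 15 tested (86.7%, against 22.2% of all tested genes) were higher in XEN. The same limit holds for these genes, since 11 to 14 of the 16 listed were below 1 FPKM in each ESC library. Their summed levels were 762 and 650.5 FPKM in XEN against 10.4 to 23.6 in ESCs. Between the XEN lines, 13 of 15 were higher in XENB1, by a median ratio of 1.21. Xist, the RNA of the inactive X chromosome, was at 50.5 and 57.2 FPKM in XEN and 0.104, 0.112, 0.0823 and 0.122 in ESCs, while the Y-linked Eif2s3y was at 4.30 and 2.34 FPKM in XEN and 91.2, 2.19, 43.0 and 0 in ESCs. How far other cells contribute to the XEN libraries was not tested, and in bulk RNA fewer cells of a type and less RNA per cell cannot be told apart.

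**Figure D1:**
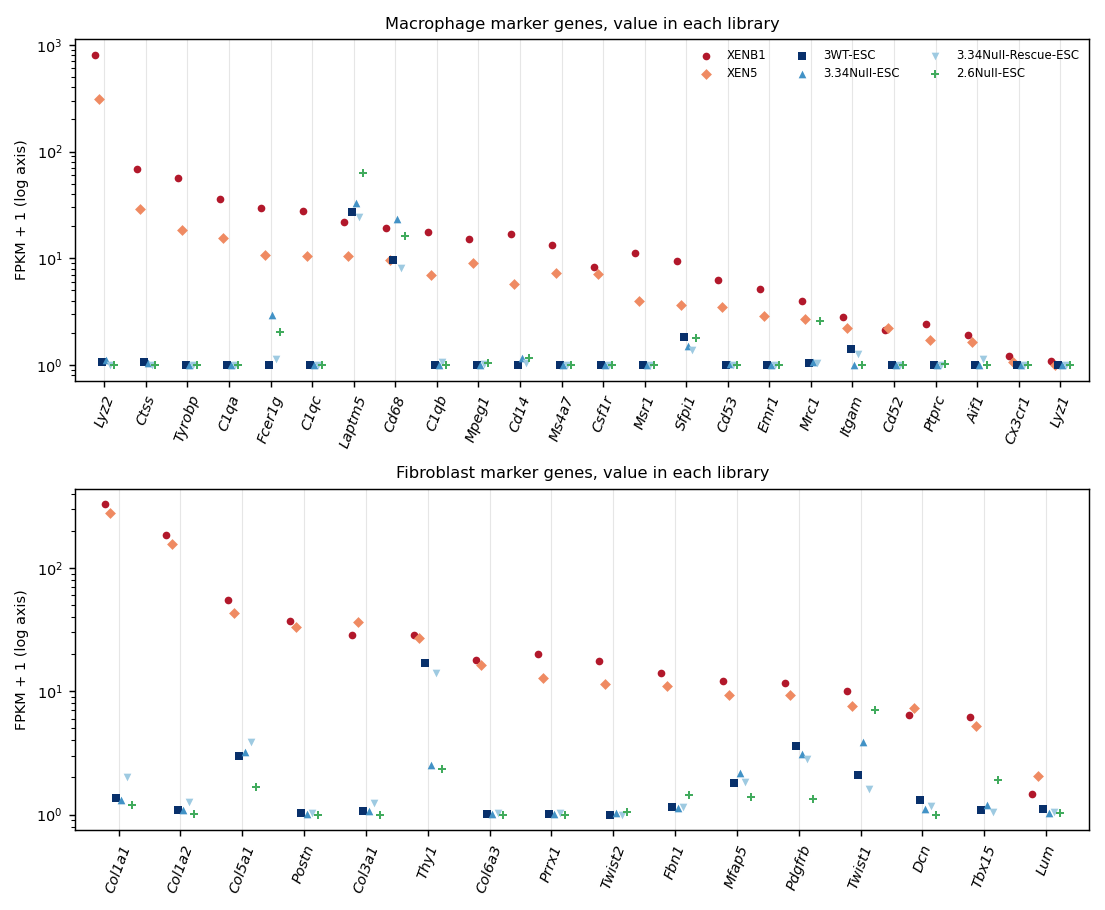
FPKM + 1 (log axis) of each macrophage gene (top) and each fibroblast gene (bottom) in the 6 libraries, genes ordered by their mean in XEN, 1 point per library. Most macrophage genes lie at or near 1, that is at 0 FPKM, in ESCs, and higher in XENB1 than in XEN5, while Laptm5 and Cd68 do not separate the groups.

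The difference between XEN and ESC ran through much of the transcriptome. Of 12372 genes tested, 5181 (41.9%) differed, 2747 (22.2%) higher in XEN and 2434 (19.7%) lower, and the median gene did not shift (-0.022 on the log2 scale). A change of 3 or more on that scale was seen at 662 genes, 418 of them higher in XEN. These shares are the background against which the counts of each gene group below are to be read. Without XENB1 2254 genes differed and without XEN5 2098, from a fit in which the lone XEN library is assumed to vary like the ESCs and in which a gene seen in XEN alone misses the 2-library filter. Of the 204 named genes that rose or fell, 162 could be fitted there, and 18 no longer passed without XENB1 and 22 without XEN5, all keeping their sign; they are named beside their group.

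Lyz2, which encodes lysozyme M, had the largest rise that the rule for named genes allows. It stood at 802 and 311 FPKM in the XEN lines and 0.0599, 0.114, 0 and 0 FPKM in ESCs, a log2 difference of 8.91 ± 0.37 (adjusted p = 8.51e-06). Both XEN lines were above every ESC library, and XENB1 was 2.58 times XEN5. Lyz2 is used as a marker of XEN cells, is also made by macrophages and is on the macrophage list above. Its gene lies at chr10:116714597-116719328 in the mm9 coordinates of the deposited table, and its near-identical neighbour Lyz1, between which reads could be split, was listed at 0.0969 and 0 FPKM.

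The other large rises were of genes for the cell surface, the matrix and growth factor control. Ctgf, a matricellular protein and a target of the Hippo pathway, rose from 0.9003, 6.74, 1.16 and 12.5 FPKM in ESCs to 2064 and 842 FPKM in XEN (log2 difference 8.18 ± 0.82). Cited1, a transcriptional coactivator, stood at 379 and 524 FPKM against 0.170, 0.949, 0.114 and 2.67. Pth1r, the receptor for parathyroid hormone-related peptide that drives parietal endoderm formation, was nearly level between the lines at 491 and 531 FPKM and at 0.540, 0.566, 0.783 and 4.06 FPKM in ESCs. Hs3st1, a heparan sulfate sulfotransferase, rose by 7.89 ± 0.42 on the log2 scale and Thbs1, a secreted adhesion protein, by 7.63 ± 0.41. The rest of the 15 largest rises were Col1a1, Bgn, Col1a2, Fbln2, Lamb1, Fxyd3, Fst, Gata4 and Glipr1, with log2 differences of 6.90 to 7.70. Col1a1 and Col1a2, the chains of type I collagen, are also on the fibroblast list.

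Falls were led by genes of the pluripotent cell. Dppa5a, an RNA-binding protein of ESCs, fell from 3342, 6225, 3639 and 5136 FPKM to 12.4 and 0.591 FPKM (log2 difference -9.91 ± 0.73, adjusted p = 5.95e-05). Tdgf1, the coreceptor of Nodal, Sox2, Pou5f1, Nanog and Esrrb followed, all with log2 differences between -8.82 and -7.81. Sox2 was below 0.1 FPKM in both XEN lines. XENB1 kept more of some of these RNAs than XEN5: Pou5f1 stood at 10.4 and 0 FPKM in the 2 lines and Dppa5a at the values above. Tdh, the threonine dehydrogenase on which mouse ESCs depend, fell from 429, 319, 409.7 and 455 FPKM to 1.31 and 0.917 FPKM. Zfp42, Utf1, Ifitm1, Gm7325, Chchd10, Tcl1, Cldn4 and Ooep completed the 15 largest falls.

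**Figure D2:**
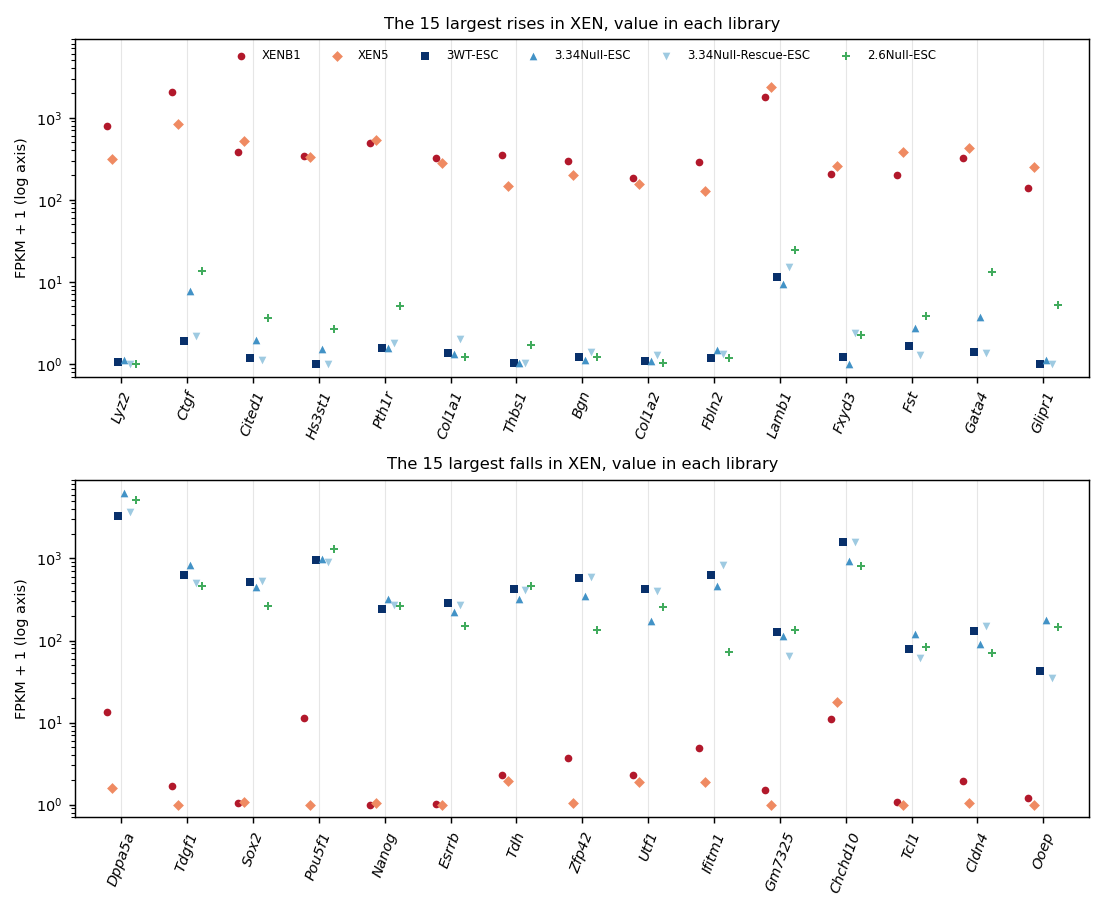
FPKM + 1 (log axis) of the 15 largest rises (top) and 15 largest falls (bottom) in each of the 6 libraries, ordered by the size of the log2 difference. XEN and ESC libraries do not overlap at any of them, which is part of how they were chosen, and within ESCs 2.6Null is the highest for Gata4, Ctgf and Glipr1 and the lowest for Zfp42 and Ifitm1.

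Transcription factors of the primitive endoderm were nearly all higher in XEN. Of 14 tested, 11 rose, 1 fell and 2 did not pass, with a median log2 difference of 4.63. Gata4 stood at 326 and 430.2 FPKM in XEN and 0.396, 2.67, 0.364 and 12.0 FPKM in ESCs (6.93 ± 0.85), and Gata6 at 158 and 196 FPKM and 0.0558, 0.562, 0.0642 and 10.5 FPKM (6.38 ± 0.91). Both were highest in 2.6Null among ESCs, and without that library the difference was 7.62 for Gata4 and 7.20 for Gata6. Sox17 (206 and 153 FPKM in XEN), Sox7 (46.6 and 108 FPKM) and Foxa2 (93.3 and 71.9 FPKM), which act beside the Gata factors in endoderm, rose by 6.65, 5.38 and 6.07. Foxq1 rose by 6.20 ± 0.69 and the liver-type factor Hnf4a by 2.57 ± 0.27. Creb3l1, a membrane-bound factor released in cells with a high secretory load, rose from 3.61, 3.57, 4.50 and 4.75 FPKM to 126 and 184 FPKM. Elf3, an epithelial Ets factor, fell by 1.58 ± 0.47 on the log2 scale, a call lost without 3.34Null (adjusted p = 0.0719), 3.34Null-Rescue (0.0567) or XEN5 (0.247). Prdm1 (-1.81 ± 0.67; without 2.6Null -2.35, adjusted p = 0.00133) and Cebpa (0.64 ± 0.33) did not pass the test, and Gata5 was too low to be tested.

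The pluripotency list moved the other way, with 21 of 24 tested genes lower in XEN, none higher and a median of -5.37. Fgf4, Nr0b1 and Prdm14 were listed at 0 in both XEN lines. Without these 3 genes, 18 were lower and the median was -5.23. The fall was not uniform. Klf4, a factor shared by many epithelia, stood at 66.7 and 64.5 FPKM in XEN and 139, 188, 117 and 103 FPKM in ESCs, a log2 difference of -1.01 ± 0.26, and Tbx3 fell by 1.28 ± 0.28. Klf4 did not pass without XENB1 (adjusted p = 0.0913) or XEN5 (0.104), nor Tbx3 without XEN5 (0.0996). Sall4 (47.8 and 59.0 FPKM in XEN, 64.3, 76.7, 67.8 and 52.5 in ESCs), Klf5 and Lin28a did not pass the test. Lin28a, which blocks let-7 maturation, ranged from 9.64 to 120.1 FPKM among ESCs and was at 91.6 and 96.1 FPKM in XEN.

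Markers of both daughter layers, parietal and visceral endoderm, were found in the XEN lines. Of 13 parietal genes, 12 rose, by a median of 5.66, and the remaining gene, Sparc, is among the genes listed at 0 described below. Beside Pth1r, they were Plat, the tissue plasminogen activator that parietal cells secrete (128 and 164 FPKM in XEN, 0.860, 0.208, 0.716 and 0.608 in ESCs), Thbd or thrombomodulin (49.3 and 218 against 0.0578, 0.130, 0.156 and 0.238), Stra6, the receptor for retinol-binding protein (58.4 and 209.8 against 0.112, 0.112, 0.0771 and 0.251), and Fst, the activin-binding protein follistatin (199 and 386 against 0.651, 1.77, 0.279 and 2.78). Snai1, a factor of the change from epithelium to migratory cell, rose by 5.53 ± 0.40. Of 20 visceral genes tested, 11 rose and 4 fell, with a median of 1.86. Without Afp and Otx2, each listed at 0 in a whole group, 10 rose and 3 fell, with a median of 2.92. Ihh, Bmp2 and Spink3, made by visceral endoderm, rose by 3.72 ± 0.29, 4.06 ± 0.26 and 6.23 ± 0.60. Afp, a plasma protein of mature visceral endoderm, was at 1.33 and 1.26 FPKM in XEN and listed at 0 in ESCs, and Apoa1 and Apob were below 0.1 FPKM in both XEN lines. Cdh1, the epithelial cadherin, fell from 164, 92.4, 196 and 77.5 FPKM to 4.28 and 0.610 FPKM, and Otx2 was listed at 0 in XEN against 8.87, 4.97, 9.99 and 6.84 FPKM.

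Basement membrane genes split into 2 kinds. Lamb1, the laminin β1 chain, was one of the most abundant RNAs of the XEN lines, at 1768 and 2386 FPKM, against 10.5, 8.30, 14.3 and 23.4 FPKM in ESCs (log2 difference 7.18 ± 0.38). The nidogens, which link laminin to collagen, rose as well: Nid1 to 152 and 569.8 FPKM from 28.5, 44.6, 27.9 and 24.3 and Nid2 to 360.5 and 466 FPKM from 90.5, 78.9, 99.2 and 88.1. Smoc1 and Smoc2, secreted calcium-binding proteins, rose by 3.97 ± 0.55 and 2.88 ± 0.24, and the proteoglycan Hspg2 by 1.28 ± 0.36, a call lost without XENB1 (adjusted p = 0.165) or XEN5 (0.0744). In contrast, the laminin chains Lama1 and Lamc1, the collagen IV chains Col4a1 and Col4a2, and Sparc, a collagen-binding glycoprotein, were listed at exactly 0 in both XEN lines while ESCs held up to 328 FPKM of Sparc and 67.3 FPKM of Col4a1, both in 2.6Null. These 5 are known products of XEN cells and, with Hsp90ab1, make up the separate run of rows described above. In the study's conversion of 2.6Null ESCs to XEN-like cells, Col4a1 was at 772 FPKM at passage 1 and listed at 0 at passage 3, while Lamb1 went from 278 to 1987 FPKM. No direction was read from them. With them the list had 9 genes higher and 6 lower of 22, with a median of -0.26, and without them 9 higher and 1 lower, with a median of 1.28. The gene that fell was Col18a1, from 40.2, 26.2, 61.7 and 45.1 FPKM to 5.90 and 4.73.

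The enzymes and chaperones that build collagen rose as a whole list: all 18 tested genes were higher in XEN, by a median log2 difference of 3.65, against 22.2% of all genes. Serpinh1, the collagen chaperone HSP47, stood at 2065 and 3473 FPKM against 68.0, 26.3, 46.1 and 73.6 FPKM in ESCs. The catalytic subunits of prolyl 4-hydroxylase, P4ha1 and P4ha2, rose by 4.80 ± 0.43 and 5.24 ± 0.37, and their partner P4hb, already abundant in ESCs, by 2.97 ± 0.31. Plod2, a lysyl hydroxylase, went from 17.9, 29.4, 19.4 and 19.6 FPKM to 401 and 897 FPKM. The cross-linking enzymes Lox and Loxl2 rose by 6.33 ± 0.29 and 5.41 ± 0.34. Several of these enzymes also serve the type I collagen of fibroblasts, whose markers were higher in the same libraries.

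**Figure D3:**
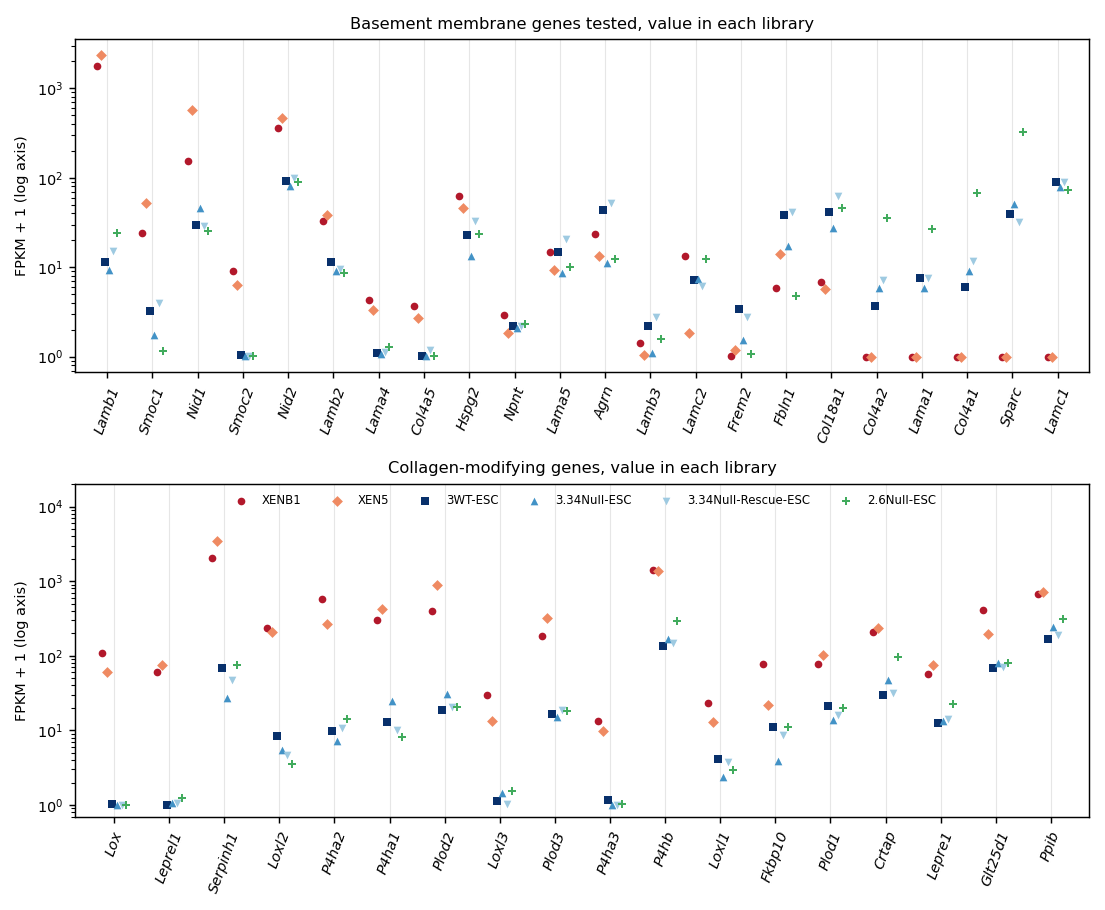
FPKM + 1 (log axis) of the tested basement membrane genes (top) and of the collagen-modifying genes (bottom) in each of the 6 libraries, ordered by log2 difference. Lamb1, the nidogens and every collagen-modifying gene lie higher in XEN, while Col4a2, Lama1, Col4a1, Sparc and Lamc1 lie at 1, that is at 0 FPKM, in both XEN lines.

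The secretory pathway was higher by a smaller amount. Of 24 tested genes of the endoplasmic reticulum and its vesicles, 22 rose and none fell, with a median of 1.64. Hspa5, the main chaperone of the endoplasmic reticulum, stood at 857 and 1071 FPKM in XEN and 135, 223, 186 and 329.7 FPKM in ESCs (2.20 ± 0.34). Sec24d, a coat protein of vesicles that carry procollagen, rose by 2.56 ± 0.23, the disulfide isomerase Pdia3 by 2.41 ± 0.34, the calcium-binding chaperone Calr by 2.14 ± 0.36, and Xbp1, the factor of the unfolded protein response, by 1.87 ± 0.33. Sec61b and Dnajb9 did not pass the test.

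Lysosomal genes were higher too, 21 of 29 with none lower (median 1.85). Ctsh, a cathepsin, went from 1.43, 1.80, 1.22 and 2.49 FPKM in ESCs to 261 and 302 FPKM in XEN, the largest difference of the list (6.71 ± 0.26). Lgmn, or legumain, rose by 4.27 ± 0.22 and the acid lipase Lipa by 3.79 ± 0.37. The proton pump subunits Atp6v1a, Atp6v1h and Atp6v0d1 (the last 1.07, adjusted p = 0.0174 without 2.6Null) and the regulators Tfeb and Tfe3 did not pass. Several cathepsins are also abundant in macrophages, and Ctss, which is on that list, stood at 67.2 and 28.1 FPKM in XEN. In the endocytosis list, 8 of 17 rose. They included Cubn, the cobalamin and albumin receptor (17.8 and 105 FPKM in XEN, 0.0308, 0.240, 0.0322 and 1.67 in ESCs), its partner Lrp2 (10.1 and 6.99 against 0.644, 0.150, 0.363 and 1.86), the receptor chaperone Lrpap1 and the adaptor Dab2 (114 and 232 against 0.432, 0.970, 0.486 and 9.27), which is needed for endocytosis in the visceral endoderm. Amn, which pairs with cubilin, did not pass (-1.34 ± 0.75).

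Genes of coagulation and fibrinolysis, which are active at the parietal yolk sac, rose at 14 of 17 tested members (median 3.08). F3, tissue factor, the starter of clotting, stood at 537 and 748 FPKM in XEN and 3.28, 5.61, 2.66 and 8.07 FPKM in ESCs (6.84 ± 0.38). Its inhibitor Tfpi rose by 3.48 ± 0.63 and the protein C receptor Procr by 4.67 ± 0.32. F2rl1, a protease-activated receptor, fell from 29.2, 31.4, 19.1 and 58.5 FPKM to 2.05 and 0.250 FPKM. F2r, the main thrombin receptor, was high in XEN and in 2.6Null and did not pass (2.01 ± 1.01; without 2.6Null 2.90, adjusted p = 7.34e-04).

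**Figure D4:**
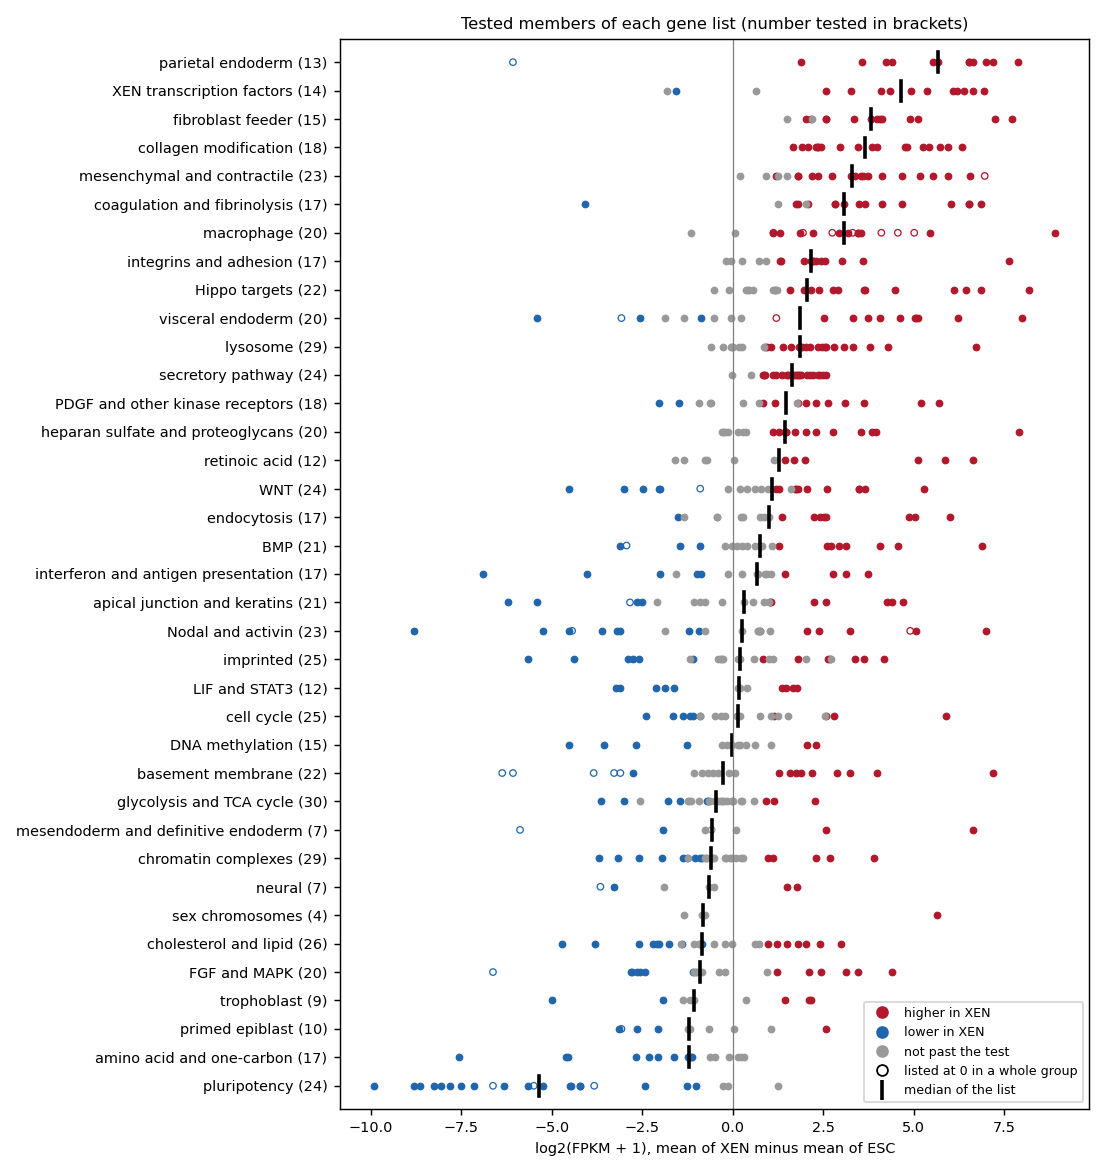
Log2(FPKM + 1) of XEN minus ESC for every tested member of each gene list, 1 point per gene, coloured by the limma call, with the list median as a bar and the number tested in brackets. Lists are ordered by median, from -5.37 for pluripotency to 5.66 for parietal endoderm, and open points are genes listed at 0 in a whole group.

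Fibroblast growth factor signalling changed its parts. Fgf4, the ligand that epiblast cells send to primitive endoderm, was at 83.4, 175, 79.8 and 78.3 FPKM in ESCs and listed at 0 in both XEN lines. The receptors Fgfr3 (20.4 and 52.4 FPKM against 0.373, 0.892, 0.832 and 0.396), Fgfr4 (13.6 and 32.8 against 1.55, 0.828, 2.30 and 1.80) and Fgfr2 rose, Fgfr1 did not pass (-0.38 ± 0.40), and the ligands Fgf3 and Fgf10 rose by 3.46 ± 0.52 and 2.43 ± 0.25. Of the feedback and target genes, Spry1 fell by 2.80 ± 0.36, Spry4 by 2.57 ± 0.61, Etv5 by 2.64 ± 0.33, Spred1 by 1.03 ± 0.28 and Spred2 by 1.09 ± 0.29 on the log2 scale. Dusp6 (-0.95 ± 0.85) and Etv4 (-1.08 ± 0.63), both highest in 2.6Null, Spry2 (-0.85 ± 0.37) and Dusp4 (0.94 ± 0.45) did not pass. Spry4, Spred1 and Spred2 did not pass without XENB1 (adjusted p = 0.0979, 0.127 and 0.098) or XEN5 (0.0566, 0.0854 and 0.113), nor Spred2 without 3WT (0.0513). Spry2 passed without 3.34Null-Rescue (-1.12, adjusted p = 0.0182) and Dusp4 without 2.6Null (1.24, adjusted p = 0.0179). In all, 6 of 20 tested genes rose and 8 fell. Among other kinase receptors, Pdgfra, the marker of primitive endoderm, rose from 0.0467, 0.573, 0.0562 and 3.42 FPKM to 64.6 and 114 FPKM, while its ligand Pdgfa fell by 2.03 ± 0.26. Flt1, a receptor of vascular growth factor, rose by 5.20 ± 0.28 and Axl by 3.62 ± 0.38. Of that list 10 of 18 rose and 2 fell.

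Nodal and the genes it works with were lower in XEN. Nodal itself fell from 21.1, 23.3, 30.1 and 32.4 FPKM to 0.427 and 0 FPKM, its coreceptor Tdgf1 as given above, the related ligand Gdf3 by 5.23 ± 0.33, the nuclear partner Foxh1 by 3.63 ± 0.41 and the processing protease Pcsk6 by 3.12 ± 0.30. Lefty2, an inhibitor of Nodal, was listed at 0 in XEN. Lefty1 was listed at 0 in XEN5 but stood at 21.3 FPKM in XENB1 and did not pass. Inhba, the activin A subunit, was at 50.4 and 16.3 FPKM in XEN and listed at 0 in all ESC libraries, its sister subunit Inhbb fell by 3.21 ± 0.26, and Tgfbr2 rose by 3.23 ± 0.39. Counting the list, 7 of 23 rose and 9 fell, shares of 30.4% and 39.1%. Without Inhba and Lefty2, 6 rose and 8 fell.

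Bone morphogenetic protein genes showed a change of ligand. Bmp4 fell from 15.5, 7.36, 9.11 and 103 FPKM to 2.16 and 0.630 FPKM, with the highest value in 2.6Null, and Bmp7 was listed at 0 in XEN, while Bmp2 and Bmp6 rose by 4.06 ± 0.26 and 3.13 ± 0.41. The extracellular antagonists Nog (225 and 80.3 FPKM against 0, 0.246, 0.159 and 0.247) and Grem1 (27.7 and 18.9 against 0, 0, 0 and 0.0598) rose. Of the target genes, Id2 and Id3 rose by 2.94 ± 0.60 and 2.71 ± 0.61, and Id1, at 353 FPKM in 2.6Null against 10.97 to 34.1 in the other ESCs, did not pass (0.81 ± 1.21; without 2.6Null 1.88, adjusted p = 0.0103). Bmp4 and Id3 were not called without XENB1 (adjusted p = 0.0918 and 0.0785) or XEN5 (0.184 and 0.0541), nor Id2 without XEN5 (0.0683). In the WNT list 11 of 24 rose and 6 fell. The ligand Wnt11 went from 0.605, 0.472, 0.354 and 2.23 FPKM to 67.4 and 70.5 FPKM, the inhibitor Dkk1 rose by 3.49 ± 0.57 and the receptor Fzd2 by 3.49 ± 0.30. The secreted inhibitor Sfrp1 fell from 65.0, 139, 46.3 and 47.3 FPKM to 0.780 and 3.88 FPKM and the receptor Fzd5 by 3.00 ± 0.51. Axin2, a common readout of the canonical pathway, did not pass (-0.14 ± 0.33).

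Of 22 tested genes of the Hippo list, which holds components of the pathway as well as its targets, 14 rose and none fell (median 2.06). Cyr61, the close relative of Ctgf, went from 1.67, 3.45, 2.30 and 16.2 FPKM to 637 and 307 FPKM, Crim1, a transmembrane growth factor antagonist, from 0.983, 1.46, 1.35 and 1.82 FPKM to 154 and 171 FPKM, and Ankrd1 from 0, 0.270, 0.291 and 0.888 FPKM to 40.8 and 20.03 FPKM. Amotl2, which holds the coactivator YAP in the cytoplasm, rose by 3.65 ± 0.39. The coactivators Yap1 (0.45 ± 0.21) and Wwtr1 (0.41 ± 0.45) and the DNA-binding partners Tead1, Tead2 and Tead4 did not pass, and Tead3 rose by 1.58 ± 0.28. Tead3 was not called without XENB1 (adjusted p = 0.0531), and without 2.6Null Tead1 passed at 0.84, adjusted p = 0.00934. Of the components, Lats2, a kinase that restrains YAP, and Amot and Amotl1, relatives of Amotl2, rose by 2.77 ± 0.39, 2.91 ± 0.38 and 1.97 ± 0.25.

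Start regions of genes of this list are shown because TEAD factors, which carry YAP to DNA, bind the core GGAATG. The list was chosen to hold targets of the pathway, and its members that did not rise were not searched. How often the core occurs in it is therefore not a result about the rise in XEN. In RefSeq promoters of GRCm38.p6, 250 bases before to 50 after a gene's start, 12 of the 14 risen Hippo genes had an entry, and 7 of them held GGAATG on either strand, against 16.6% of 27025 genes with an entry. For 4 of them the sequence is given on the gene's strand, 5′ to 3′, with each match in capitals (CATTCC is the same core on the other strand), as a description and not as a measured site. The stretches are chr19:36119795-36120094 (minus strand), chr3:145649936-145650235 (minus strand), chr17:78199998-78200297 (plus strand) and chr7:25788684-25788983 (minus strand), in the order below, and Cyr61 is named Ccn1 in RefSeq.
Ankrd1: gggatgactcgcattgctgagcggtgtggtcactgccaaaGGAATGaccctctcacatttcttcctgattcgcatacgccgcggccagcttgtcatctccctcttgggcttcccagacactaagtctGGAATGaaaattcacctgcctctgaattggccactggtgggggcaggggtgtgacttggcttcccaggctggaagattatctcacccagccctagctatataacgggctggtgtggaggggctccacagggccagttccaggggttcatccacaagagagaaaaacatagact
Cyr61: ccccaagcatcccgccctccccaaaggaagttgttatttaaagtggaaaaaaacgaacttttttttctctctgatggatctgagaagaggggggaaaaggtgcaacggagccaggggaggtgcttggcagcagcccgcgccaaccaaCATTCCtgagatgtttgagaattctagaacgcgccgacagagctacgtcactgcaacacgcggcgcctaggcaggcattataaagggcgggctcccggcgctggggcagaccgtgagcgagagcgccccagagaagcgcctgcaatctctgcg
Crim1: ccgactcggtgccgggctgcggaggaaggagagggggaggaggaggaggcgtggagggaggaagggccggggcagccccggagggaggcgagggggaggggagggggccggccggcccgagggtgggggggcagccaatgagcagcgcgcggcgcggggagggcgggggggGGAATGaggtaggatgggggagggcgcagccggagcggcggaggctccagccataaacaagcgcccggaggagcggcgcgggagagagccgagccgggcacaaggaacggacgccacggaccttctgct
Axl: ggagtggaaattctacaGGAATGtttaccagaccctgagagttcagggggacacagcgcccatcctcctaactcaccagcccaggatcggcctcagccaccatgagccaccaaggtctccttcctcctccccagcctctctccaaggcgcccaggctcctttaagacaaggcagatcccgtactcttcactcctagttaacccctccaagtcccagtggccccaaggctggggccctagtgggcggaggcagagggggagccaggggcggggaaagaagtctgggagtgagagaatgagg
The GATA core AGATAA or TGATAA, searched in the same way, was in none of the 9 matched genes of the 15 largest rises, against 21% of all genes, and the octamer ATGCAAAT in 2 of the 12 matched genes of the 15 largest falls (Chchd10 and Zfp42), against 1.97%. GGAATG was in 1 of the 9 matched genes of the largest rises (11.1%), against 16.6% of all genes.

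Of 12 tested retinoid genes 6 rose and none fell. Cyp26a1, which degrades retinoic acid, stood at 69.7 and 69.5 FPKM in XEN and 0.0324, 0.111, 0.227 and 0.612 FPKM in ESCs, Rdh10, which makes retinal, rose by 2.00 ± 0.26, Dhrs3, which reduces retinal, by 1.68 ± 0.32, and Rbp4, the plasma carrier of retinol, by 5.11 ± 0.95, beside Stra6 above. Of the receptors, Rarb rose by 1.44 ± 0.26, to 2.23 and 2.15 FPKM. The receptors Rara, Rarg and Rxra did not pass, and without 2.6Null all 3 passed as lower, at -1.25, adjusted p = 0.00399, -1.01, adjusted p = 0.0222 and -0.75, adjusted p = 0.033. In the LIF and STAT3 list 4 of 12 tested genes rose and 5 fell. Of its target genes, Socs3 fell from 143, 91.8, 132 and 50.4 FPKM to 27.9 and 23.4 FPKM, Bcl3 by 3.24 ± 0.29, Socs2 by 3.13 ± 0.41, Pim1 by 2.13 ± 0.45 and Pim3 by 1.61 ± 0.29, while Junb rose by 1.37 ± 0.39. The ligand Lif itself rose by 1.65 ± 0.30 and the receptors Lifr and Osmr rose by 1.47 ± 0.36 and 1.78 ± 0.28. Without XEN5, Socs3 (adjusted p = 0.071), Pim1 (0.0787), Pim3 (0.0522), Lif (0.0557) and Lifr (0.137) were not called, and without XENB1, Junb (0.207) and Dhrs3 (0.0617) were not. Stat3 (0.38 ± 0.22) and Il6st (0.20 ± 0.39) did not pass.

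Epithelial and mesenchymal genes were mixed in the XEN lines. Of the keratins, Krt8 rose from 17.5, 17.6, 14.4 and 67.7 FPKM to 574 and 377 FPKM, Krt18 by 4.70 ± 0.32 and Krt19 by 4.39 ± 0.43, and Krt7 did not pass (-1.07 ± 0.89; without 2.6Null -1.80, adjusted p = 0.0117), while the tight junction gene Cldn4 fell by 6.20 ± 0.38 and Cldn3 was listed at 0 in XEN. Cdh2, the cadherin of mesenchyme, rose to 4.92 and 4.001 FPKM from 0.177, 0.0198, 0.221 and 0.192, and Epcam, at 67.2 and 27.1 FPKM in XEN, did not pass (-0.90 ± 0.33; without XENB1 -1.54, adjusted p = 0.0101). Of 23 mesenchymal and contractile genes 19 rose and none fell (median 3.28). Vim, vimentin, went from 57.7, 18.5, 29.5 and 72.5 FPKM to 574 and 498 FPKM, and Tagln, an actin-binding protein of contractile cells, from 0.163, 0.0600, 0.438 and 0.440 FPKM to 261 and 51.8 FPKM. Of integrin and adhesion genes 12 of 17 rose and none fell. They included Itgb1 (2.17 ± 0.36), Itga5 (2.22 ± 0.29) and Itgav (2.44 ± 0.26), and the focal adhesion protein Zyx rose by 3.58 ± 0.22. Fn1 (0.25 ± 0.80) and Itga6 (-0.06 ± 0.37) did not pass. The fibroblast genes given above were higher in the same libraries as these lists.

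Heparan sulfate genes rose at 13 of 20 tested members with none lower. The chain-polymerising enzyme Ext1 rose by 2.30 ± 0.30, the 6-O-sulfotransferase Hs6st2 by 3.85 ± 0.39, and the core proteins Gpc4 and Gpc6 by 3.96 ± 0.60 and 3.55 ± 0.27. Gpc3 (0.14 ± 0.77) and Sulf2 (-0.30 ± 0.36) did not pass.

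DNA demethylation and Polycomb genes changed in opposite directions within a family. Tet1 fell from 33.5, 40.0, 34.9 and 19.4 FPKM to 1.03 and 2.55 FPKM and Tet2 by 2.69 ± 0.37, while Tet3 rose from 0.668, 1.15, 0.504 and 1.13 FPKM to 7.50 and 8.59 FPKM. Dnmt3l, the cofactor of new DNA methylation, fell by 4.52 ± 1.09, with ESC values spread from 2.90 to 105 FPKM, Uhrf1 by 1.27 ± 0.19, and Dnmt1, Dnmt3a and Dnmt3b did not pass (Dnmt3b without 2.6Null 1.55, adjusted p = 0.00404). Dnmt3l and Ezh2 were not called without XENB1 (adjusted p = 0.0828 and 0.123) or XEN5 (0.0744 and 0.0578), nor Suz12 without XENB1 (0.0629). Of the accessory subunits of Polycomb repressive complex 2, Jarid2 fell from 69.7, 50.8, 80.2 and 90.6 FPKM to 6.601 and 7.41 FPKM and Mtf2 by 2.58 ± 0.32, and the core subunits Suz12 and Ezh2 by 1.26 ± 0.25 and 0.86 ± 0.21. Among the chromobox readers of complex 1, Cbx7 fell from 80.4, 35.6, 81.1 and 30.5 FPKM to 1.08 and 6.99 FPKM and Cbx8 rose by 2.68 ± 0.24. Smarca2, an ATPase of the BAF remodelling complex, rose from 0.339, 0.401, 0.332 and 0.790 FPKM to 45.7 and 9.17 FPKM, while Smarca4 did not pass (-0.071 ± 0.23). Of all chromatin genes listed, 5 of 29 rose and 11 fell.

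Metabolic genes fell at some steps and rose at others. In the amino acid and one-carbon list 11 of 17 fell and none rose (median -1.22). Beside Tdh, Amt of the glycine cleavage system fell from 55.6, 58.0, 42.5 and 81.7 FPKM to 1.05 and 1.79 FPKM, the arginine and lysine transporter Slc7a3 by 4.54 ± 0.55 and Asns, asparagine synthetase, by 2.30 ± 0.24, whereas Gldc (0.22 ± 0.40) and Phgdh (0.30 ± 0.30) did not pass. Several genes of cholesterol synthesis fell: Fdps from 112, 96.3, 118 and 171 FPKM to 29.6 and 26.1 FPKM, Sqle by 2.05 ± 0.22, and Idi1 by 2.60 ± 0.40. The cholesterol-esterifying enzymes Soat1 and Soat2 rose by 2.99 ± 0.50 and 1.80 ± 0.39, and Apoe fell from 760.1, 1134, 508 and 1779 FPKM to 121 and 36.3 FPKM. Soat2 was not called without XEN5 (adjusted p = 0.0996). The full lipid list held 7 genes higher and 11 lower of 26. In central carbon metabolism, 21 of 30 genes did not pass the test. The 6 that fell (20%) and 3 that rose (10%) compare with 19.7% and 22.2% of all genes, so the share lower was that of the background. Pfkp, a phosphofructokinase, fell from 99.7, 87.2, 93.9 and 39.5 FPKM to 6.56 and 3.98 FPKM, Pdk1 fell by 3.01 ± 0.42, and the lactate transporter Slc16a1 rose by 2.27 ± 0.33.

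Among cell cycle genes 15 of 25 did not pass. Ccnd2 went from 0.485, 0.304, 0.156 and 1.02 FPKM to 102 and 69.98 FPKM (5.87 ± 0.32), and the inhibitors Cdkn2a and Cdkn2b rose by 2.58 ± 0.30 and 2.78 ± 0.43, while Cdk6 and Trp53 fell by 2.39 ± 0.43 and 1.64 ± 0.33 (Trp53 without XENB1, adjusted p = 0.0588). Of 17 tested interferon and antigen presentation genes, 4 rose (23.5%) and 5 fell (29.4%), against 22.2% and 19.7% of all genes. B2m, the light chain of class I antigen presentation, rose from 17.8, 48.7, 13.6 and 28.7 FPKM to 273 and 407 FPKM and H2-D1 by 3.13 ± 0.42. H2-K1, Tap1, Tap2 and Tapbp, of the same pathway, did not pass. Ifitm1 fell from 632, 462, 829 and 70.7 FPKM to 3.88 and 0.893 FPKM and Ifitm2 by 4.02 ± 0.32. Their near-identical family members may share reads.

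Imprinted genes, expressed from 1 parental copy, had no common direction (7 higher and 6 lower of 25). Sfmbt2, needed in extraembryonic tissue, rose from 0.225, 0.206, 0.346 and 0.222 FPKM to 24.7 and 18.8 FPKM, Sgce by 3.61 ± 0.44 and Peg3 by 3.37 ± 0.48, and Slc38a4 and Phlda2 fell by 5.66 ± 0.75 and 4.39 ± 0.54. Peg10, next to Sgce, did not pass. 2.6Null alone among ESCs was high in Peg10, at 129 FPKM, and without it the difference was 3.99, adjusted p = 3.67e-05. Tested X-linked genes were higher at 32.8% and lower at 14.6%, against 22.2% and 19.7% of all genes. That was the largest share higher of any chromosome. The nearest autosomes were 19, with 29.3% and 11.9%, and 6, with 29.3% and 14.2%. Other autosomes had more genes lower than higher, among them 4 (13.4% higher, 33.3% lower), 8 (15.3% and 26.2%) and 1 (18.4% and 24.9%).

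The trophoblast, mesendoderm, neural and primed epiblast lists had few tested members (9, 7, 7 and 10). In that order, 33.3%, 28.6%, 28.6% and 10% of them were higher in XEN, against 22.2% of all genes. The shares lower were 22.2%, 28.6%, 28.6% and 40%, against 19.7%. Of the trophoblast genes 3 of 9 tested rose, Plac1 by 2.16 ± 0.28, Gata3 by 1.44 ± 0.21 and Fgfr2 as above, while Eomes fell by 1.92 ± 0.29. Tfap2c fell from 67.7, 54.5, 107 and 1.86 FPKM to 0.0424 and 0.0237 FPKM, and Cdx2, the founding factor of trophoblast, was at 0.112 and 1.39 FPKM. Of the mesendoderm genes most were below the filter, T was listed at 0 in both XEN lines, and the 2 that rose were Sox17 and Cldn6 (2.58 ± 0.58), which other lists hold too. Of the neural genes, Tubb3 fell by 3.30 ± 0.35 and Sox1 was listed at 0 in XEN, while Nes, which many migratory cells make, and Fabp7 rose by 1.78 ± 0.38 and 1.504 ± 0.21 (Nes without XENB1, adjusted p = 0.081). Of the primed epiblast genes 4 of 10 fell, Foxd3 by 3.15 ± 0.76, and no gene of the 2-cell-like list reached the filter. Tfap2c, Cldn6 and Foxd3 were not called without XENB1 (adjusted p = 0.0942, 0.05 and 0.0799) or XEN5 (0.0972, 0.0831 and 0.0785), and Tfap2c not without 3.34Null (0.051).

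The 2 XEN lines differed from each other in part of the endoderm programme. With 1 library each there is no test, and 151 genes (1.22%) lay past 4-fold on the FPKM + 1 scale, 45 higher in XEN5 and 106 higher in XENB1. XEN5 had more RNA of some visceral products, but not of the visceral list throughout. Lefty1, Cdh1 and Lrp2 of that list were higher in XENB1, at the values given above, and Bmp2 and Afp were nearly level. Rbp4 stood at 33.5 FPKM in XENB1 and 457 in XEN5, Ttr, the carrier transthyretin, at 7.45 and 72.6, Mttp, which loads lipoproteins, at 9.15 and 86.6, and Cubn at the values given above. Between XEN and ESC, Mttp was not called without XEN5 (adjusted p = 0.0552). Thbd, Stra6 and Gpx3 of the parietal list were higher in XEN5 as well. Contractile genes were higher in XENB1: Acta2 was at 249 and 60.7 FPKM, Tagln at 261 and 51.8, Myl9 at 100.3 and 17.4 and Lgals1, a galectin, at 972 and 185. The rule for line differences also named Spock1, Clps, Ndrg1, Car14, Tex13, Gm1821 and Mir703 on the XEN5 side and Rhox6, Lefty1, Cyp27a1, Apoc1, Rpl29, Snhg9, Rpph1, Snora68, Snora81 and Snord22 on the XENB1 side. The small RNAs among them swing as widely within ESCs, where Mir703 was listed at 0, 2389, 0 and 0 FPKM, and are uncertain.

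**Figure D5:**
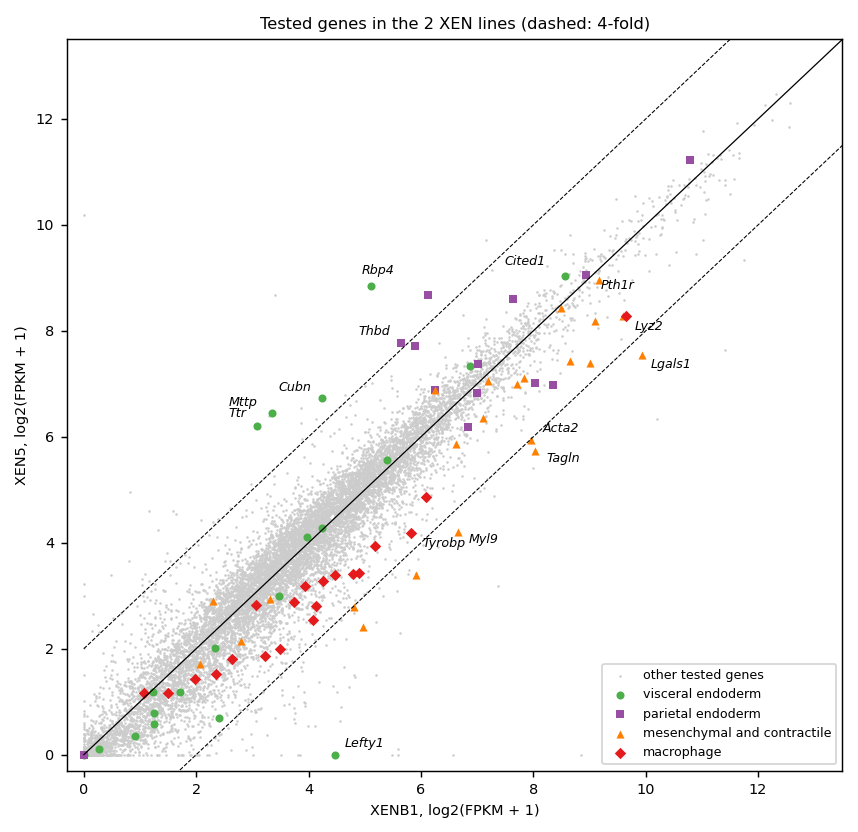
Log2(FPKM + 1) of each tested gene in XENB1 (horizontal) and XEN5 (vertical), with 4 gene lists coloured, the line of equality and dashed lines at 4-fold. Rbp4, Ttr and Mttp lie above the upper dashed line, Tagln, Acta2 and Myl9 on or below the lower one, and the macrophage genes mostly below the line of equality.

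The same markers can be read in cells made from ESCs by the study's conversion to XEN-like cells (cXEN), which were sampled at passages 1 and 3. At passage 3, the 2 knockout lines stood at 410.2 (3.34Null) and 323 FPKM (2.6Null) of Gata4, near the XEN lines, and 3WT and 3.34Null-Rescue at 1.11 and 0.230 FPKM. Lyz2 was at 64.6 and 57.5 FPKM in the former and at 5.84 and 22.1 FPKM in the latter, where Gata4 was low. In passage 1, Lyz2 was below 0.1 FPKM in all 4 lines and C1qa and Tyrobp were listed at 0, but other genes of the macrophage list were present in the knockout lines. Fcer1g, a subunit of antibody receptors, was at 2.62 FPKM in 3.34Null and 1.59 in 2.6Null, Cd14, a receptor for bacterial lipopolysaccharide, at 2.25 and 1.98, and Csf1r at 0.0584 and 1.41. In 3WT and 3.34Null-Rescue of passage 1, Cd14 was at 0.391 and 0.490 FPKM and Csf1r at 0. Cd52, also on that list, was at 0.309 and 0.342 FPKM there, and at 1.51 in 3.34Null and 0.365 in 2.6Null. At passage 3, C1qa was at 3.29 and 5.25 FPKM in the knockout lines and at 0.276 and 0.761 FPKM in 3WT and 3.34Null-Rescue. Pth1r was at 402 and 278 FPKM in the knockout lines and at 1.67 and 1.77 FPKM in the others. The 3.34Null-Rescue library of passage 3 thus held Lyz2 RNA with Gata4 and Pth1r RNA at the values above, and no test was made over these single libraries.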

How the data were processed

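The authors aligned and quantified the reads before deposit, and the table holds 1 FPKM value per gene and library. Per the submitters' processing notes, STAR 2.5.3, Cufflinks 2.1.1 and mm9 were used. Strandedness of the libraries is not given in the sources used here, so genes that overlap or lie antisense cannot be told apart. No counts are given, so depth is unknown and no interval from counting can be stated. All 14 value columns were matched to samples by name, and 0 columns were left without a sample.

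The deposited FPKM values were used as log2(FPKM + 1) for genes with at least 1 FPKM in at least 2 of the 6 libraries. XEN (2 libraries) and ESC (4 libraries) were compared with limma 3.58.1 in R 4.3.3 (eBayes with a trend), with Benjamini-Hochberg adjustment over all genes tested and a threshold of 0.05. The fit was tested on simulated data for this comparison: of 200 genes changed by 2 on the log2 scale among 11518 genes, 76.5% were recovered, with 11 false calls. The simulation changed few genes by a single size, whereas 41.9% of genes differed in the data, so its rates do not carry over. Loci are printed from the deposited table in mm9, with 1 added to the start, since at 7509 of 21026 symbols matched to GRCm38.p6 the span equals end minus start, against 474 for end minus start plus 1. Promoters come from RefSeq (GRCm38.p6), searched on both strands.

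The members and gene lists were chosen with earlier results of these data known. Genes were named by a rule: Lyz2, Gata6, Dppa5a and Zfp281, the 15 largest rises and 15 largest falls among called genes whose groups do not overlap, with a mean of at least 10 FPKM in the higher group and no group wholly at 0, up to 6 called members with the largest difference in each list, and the 10 largest differences between the XEN lines in each direction. Other list members named in the text, the macrophage list and the order of the table's rows were chosen after their values were seen. Alternatives changed the pseudocount, the filter, the normalization, the variance model, a minimum change, the ESC libraries used, a term for the library prefix, and each library left out in turn. A few list members are counted in their lists but not reported here by name.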

Additional observations from a re-analysis of the deposited data

Results flagged for a closer look

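Among the 285 named genes examined, 39 had 1 of the 4 ESC libraries far from the other 3. The rule flags about 1 in 20 groups of normally spread values. A gene at 0 in 3 libraries and above 0 in the other, such as Csf1r, is flagged whatever its value. The count of 39 therefore cannot be set against that rate. The library apart was mostly 2.6Null, the highest at 25 genes and the lowest at 4. It comes from a Zfp281 knockout line that is also the only ESC library sharing the XH prefix with the XEN libraries, so line, genotype and prefix cannot be told apart. Gata6 stood at 10.5 FPKM there, against 0.0558 to 0.562 FPKM in the other ESC libraries, Dab2 at 9.27 FPKM against 0.432 to 0.970, and Pth1r at 4.06 FPKM against 0.540 to 0.783. The imprinted gene Peg10 stood at 129 FPKM against 2.32 to 3.56, and its neighbour Sgce was also apart. The other FPKM values by which 2.6Null stood above the rest were Thbs1 at 0.697, Glipr1 at 4.22, Sox7 at 5.74, Csf1r at 0.0128, Foxa2 at 1.20, Ihh at 0.805, Bmp2 at 0.533, Sec24d at 11.6, Lgmn at 37.3, Lrpap1 at 43.7, Amn at 14.3, Grem1 at 0.0598, Dkk1 at 0.954, Krt8 at 67.7, Itga5 at 28.4, Soat2 at 3.24, Sgce at 8.34, Gata3 at 0.136, Ttr at 0.0511, Snora68 at 1112 and Snora81 at 30.8. In 2.6Null the lowest values were Lipa at 1.30, Bmp7 at 1.42, Tead1 at 7.69 and Pfkp at 39.5 FPKM.

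In 3.34Null the values apart were Fgf4 at 175, Pim3 at 93.9, Phlda2 at 29.6, Plac1 at 0.0664, Fabp7 at 0.0995 and Mir703 at 2389 FPKM. In 3WT they were Smoc2 at 0.0501, Lox at 0.0272 and Snord22 at 539 FPKM, and in 3.34Null-Rescue Sfmbt2 at 0.346 FPKM. The small RNAs among these genes were listed at 0 in the other 3 ESC libraries.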

How the results depend on the processing

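No setting turned the direction of any gene that differed both there and in the comparison as reported, and none of the named genes changed sign with a call. Of the 204 named genes that rose or fell, 162 kept their call in every setting that could fit them. Requiring a change of more than 1 on the log2 scale left 1418 genes, 947 higher and 471 lower. With 2.6Null as the only ESC library (prefix XH only), 2952 genes differed, 932 of them lower, 68.4% of the differing genes were higher in XEN against 53%, and the median over all genes shifted by 0.171. Here 1 library stands for the ESCs. With the prefix as a term, the difference again rested on 2.6Null alone, because the other ESC libraries then set the prefix term. The median over all genes shifted by 0.0687 in that fit, which is not a separate check. Leaving out 1 library at a time gave 2098 to 6235 genes in all, 1093 to 3097 higher and 1005 to 3138 lower, the lowest counts without XENB1 or XEN5, where fewer genes pass the filter and 1 XEN library remains. No paired analysis was possible because the XEN and ESC libraries come from different lines and the labels give no shared replicate numbers. Depth is unknown, so low values carry an error that cannot be stated, and exact zeros of abundant genes limit every statement on laminin and collagen IV.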
